A study of Homo sapiens with 5 samples.

Results

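Oxidative phosphorylation in A549 cells, an established human lung carcinoma epithelial line, was followed through 91 of the 23340 genes with exon counts. The genes were chosen by symbol: those beginning NDUFA, NDUFB, NDUFC, NDUFS or NDUFV with a number, SDHA to SDHD, and those beginning UQCR, COX4 to COX8 or ATP5 with a letter. By textbook knowledge 82 of them encode subunits of the 5 respiratory complexes, and the other 9 are copies, readthrough genes and genes that share only the naming pattern. The series concerns double-stranded RNA from inverted repeats and the response of RNase L and the interferon system. Its 5 libraries were 5 groups of 1: mock cells, which received the Lipofectamine reagent without oligo for 16 h, cells transfected with a control oligo at 50 nM and taken after 9 h or 16 h, and cells transfected with the 23N randomer oligo at the same dose and times. Every group is the same cell line carried by the same reagent, the labels name no genetic change, and they leave unsaid whether separate cultures were used for the 2 times. Total RNA depleted of ribosomal RNA was sequenced. Exon and intron reads of each gene were counted separately.

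Oxidative phosphorylation is the pathway by which mitochondria make ATP. Complexes I and II feed electrons from NADH and succinate to ubiquinone, complex III passes them to cytochrome c, complex IV reduces oxygen, and complex V, the ATP synthase, uses the resulting proton gradient. Nearly all subunits are encoded in the nucleus, a few core subunits by mitochondrial DNA. Many promoters of the nuclear subunit genes are known to be bound by the factors NRF1, GABPA and YY1, and lung carcinoma lines use the pathway beside glycolysis.

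Exon totals ranged from 1476223 to 2629053 counts and intron totals from 603142 to 1947593 counts. Introns held 22% to 23.6% of assigned counts without randomer, 49.7% with randomer at 9 h and 56.9% at 16 h. Reads of RN45S, from which ribosomal RNA is cut, were 16.4% of exon counts in the randomer library of 16 h and 6.78% to 11.5% elsewhere. Marker genes of A549 and airway epithelium summed to 8962 exon counts in mock, 14295 and 13840 in the control oligo libraries, and 7229 and 4212 in the randomer libraries (9 h first), with NKX2-1 at 0 throughout and EPCAM at 0 but for 4 counts with randomer at 16 h. Of these 9 genes KRT18 and ALDH1A1 fell by the edgeR exon test described below, against 3.11% of all genes tested. The changes of the other markers with counts are not reported here. Leukocyte markers summed to 12, 12 and 16 counts without randomer and to 95 and 99 with it, and PTPRC and CD3E were at 0. Endothelial markers summed to 0 without randomer and to 58 and 81 with it, mostly VWF, and fibroblast markers to between 130 and 514 counts in all libraries. The part of RN45S, introns and these markers in the results below was not tested.

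A short stretch upstream of the transcription start is shown for 3 complex III genes whose windows hold the NRF1 letters, because 4 of the 7 windows of that complex held them, and for COX6A1, one of the genes that fell, which holds none of the letters searched. The sequences are the 250 bases before the RefSeq start on GRCh38.p14, read in the direction of the gene: UQCRC1 at chr3:48609647-48609896 (minus strand), UQCRFS1 at chr19:29213152-29213401 (minus), UQCR11 at chr19:1605463-1605712 (minus) and COX6A1 at chr12:120437863-120438112 (plus). Capitals mark matches to the NRF1 letters, GCGCA then any base then GCGC, on either strand and to the ETS letters CCGGAAGT on either strand.
UQCRC1: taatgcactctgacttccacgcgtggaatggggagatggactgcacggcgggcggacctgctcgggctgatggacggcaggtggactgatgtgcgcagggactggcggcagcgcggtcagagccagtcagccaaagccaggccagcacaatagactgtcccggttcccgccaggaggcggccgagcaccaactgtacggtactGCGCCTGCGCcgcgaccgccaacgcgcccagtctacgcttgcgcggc
UQCRFS1: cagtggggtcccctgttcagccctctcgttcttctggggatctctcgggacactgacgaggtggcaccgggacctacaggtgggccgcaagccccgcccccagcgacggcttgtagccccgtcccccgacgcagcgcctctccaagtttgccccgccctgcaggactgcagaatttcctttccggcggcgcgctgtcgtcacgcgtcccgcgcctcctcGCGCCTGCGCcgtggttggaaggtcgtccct
UQCR11: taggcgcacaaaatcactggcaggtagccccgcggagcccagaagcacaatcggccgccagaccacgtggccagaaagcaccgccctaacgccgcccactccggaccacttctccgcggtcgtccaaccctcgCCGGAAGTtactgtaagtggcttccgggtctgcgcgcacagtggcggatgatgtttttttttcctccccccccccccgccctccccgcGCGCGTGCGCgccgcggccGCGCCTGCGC
COX6A1: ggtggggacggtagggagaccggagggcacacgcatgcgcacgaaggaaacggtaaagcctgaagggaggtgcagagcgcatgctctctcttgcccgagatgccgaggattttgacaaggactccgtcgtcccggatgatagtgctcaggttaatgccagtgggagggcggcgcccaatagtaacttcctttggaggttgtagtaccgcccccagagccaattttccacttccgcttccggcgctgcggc
In windows of 250 bases before to 50 after the start, 16 of 68 subunit genes (23.5%) held the NRF1 letters, against 12.4% of the 8094 genes tested by exon counts that could be matched by symbol and 6.28% of all 27305 windows. Complex III held them in 4 of 7 windows (UQCR10, UQCR11, UQCRC1 and UQCRFS1), complex II in 2 of 3, complex I in 6 of 31, complex V in 3 of 11 and complex IV in 1 of 16. The YY1 letters AAGATGGC on either strand were in 11 subunit windows (16.2%, against 6.05% of the genes tested), the ETS letters in 9 (13.2%, against 9.38%) and TATAAA on the given strand in 4 (5.88%, against 3.34%). Matches of different motifs could overlap, and a match is a description of letters, not of a bound site.

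The exon share of the pathway was lower in both randomer libraries. All 91 genes together held 1.11% of exon counts in mock cells, 1.05% (9 h) and 1.13% (16 h) in control oligo cells, and 0.795% (9 h) and 0.621% (16 h) in randomer cells. The exact Clopper-Pearson 95% intervals ran from 1.09% to 1.12%, 1.03% to 1.06%, 1.12% to 1.14%, 0.782% to 0.808% and 0.609% to 0.634%. They cover counting error only, and the shares were not tested against each other. In bulk RNA, fewer cells of a type and less RNA per cell cannot be told apart. One gene weighed heavily in this sum. ATP5B, the catalytic beta subunit of the ATP synthase, supplied 48.6%, 45.4% and 44.1% of the pathway's exon counts in mock, control oligo 9 h and control oligo 16 h, and 37.4% and 35.8% with randomer. Without it the other 81 subunit genes held 0.547%, 0.551% and 0.607% of exon counts, and 0.479% and 0.387% with randomer. The randomer libraries were thus the lowest on both counts.

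**Figure D1:**
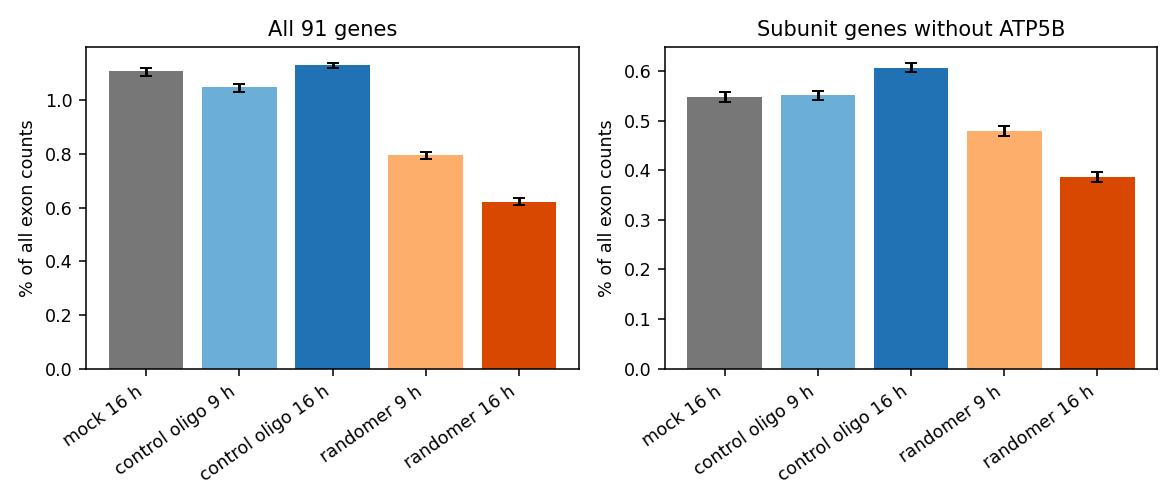
Share of all exon counts (%, y axis) held by the 91 genes (left) and by the subunit genes without ATP5B (right) in each library; bars are single libraries and error bars are exact 95% counting intervals. The 2 randomer bars are the lowest in both panels, at 0.795% and 0.621% on the left.

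Summed by complex and expressed as CPM (counts scaled to library size with TMM factors), complex V had 6960 in mock, 5968 and 6255 with control oligo, and 3877 and 3230 with randomer. Complex III had 1205, 1177, 1250, 968 and 750 CPM in the same order, and complex IV 1535, 1318, 1506, 1017 and 966. Complex I, the largest by number of genes, had 1521, 1503, 1638, 1260 and 1202 CPM. Complex II had 262, 230, 268, 199 and 238. In complexes I, III, IV and V both randomer libraries lay below the 3 others, and in complex II the randomer library at 16 h lay above control oligo at 9 h. As log2 ratios of randomer over control oligo at 16 h, the sums differed by -0.95 for complex V (counting interval up to -0.91), -0.74 for complex III (-0.84 to -0.64), -0.64 for complex IV (-0.73 to -0.55), -0.45 for complex I (-0.53 to -0.36) and -0.17 for complex II (-0.37 to 0.02). Without ATP5B the complex V ratio was -0.57 (-0.67 to -0.48). At 9 h the same ratios were -0.62, -0.28, -0.37, -0.26 and -0.21, and complex V without ATP5B was at -0.22. Differences between complexes were not tested.

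For single genes, the comparison of randomer with control oligo asked for a shared difference over both times, without requiring the same direction at each. It was made with edgeR's quasi-likelihood test over the 4 oligo libraries, with a term for time, and Benjamini-Hochberg adjustment over 11407 genes, and a gene is said to have fallen or risen at an adjusted p under 0.05. Of the 91 genes 79 had enough counts (10 in 2 libraries), of which COX6B2 passed only through the randomer libraries. The 12 others were NDUFA3, NDUFC2-KCTD14, COX4I2, COX6A2, COX7A1, COX7B2, COX8C, NDUFA4L2, ATP5E, ATP5I, ATP5J2-PTCD1 and ATP5L2. Of the 79, 5 fell, which were ATP5B, NDUFB9, COX7A2L, COX6A1 and ATP5SL, and COX6B2 was called higher. Over all genes 3.11% fell and 6.79% rose. Without genes that passed the count minimum only with randomer, 0 of 78 pathway genes and 4.99% of all genes rose. With library totals in place of TMM 2 fell and 1 rose, against 279 and 753 of all 11407 genes. Without adjustment 14 of the 79 were lower and 1 higher at p under 0.05, against 1007 lower and 1444 higher over all genes.

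The genes leaned low as a group. Their median fitted exon log2 change was -0.45 against 0.04 over all genes, and 59 of 79 lay below 0 (74.7%, against 48.2% of all genes). Both randomer libraries lay below both control oligo libraries in 36 of the 79, against 23.8% of all genes, and in 29 of these they also lay below mock, against 18% of all genes. Both lay above both control oligo libraries in 6, against 27.6% of all genes. At single times, randomer was at least 1.5-fold lower than control oligo in 28 of 79 at 9 h (22.8% of all genes) and higher in 17 (30.4%), and lower in 40 at 16 h (26.9%) and higher in 7 (32.7%). Control oligo against mock at 16 h was at least 1.5-fold lower in 10 of 78 (20.3%) and higher in 17 (24.2%), with a median of 0.04. The randomer comparisons share no library between times, while both 16 h comparisons share the control oligo library.

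Depth went with these counts. Among all genes with a mean of 300 exon counts or more 15.8% fell, and 2 of the 10 pathway genes in that range did, ATP5B and COX7A2L. Between 100 and 300 counts 3 of 23 fell (13%), against 3.78% of all genes. The median change was -0.53 against -0.30 in the upper range, -0.54 against -0.11 between 100 and 300, -0.49 against 0.06 between 50 and 100, and -0.00 against 0.41 below 50. The pathway genes were thus lower than all genes of like abundance in each range, a difference that was not tested. In the same fit, mitochondrial ribosomal protein genes had a median of -0.47 (4 of 71 fell, none rose), proteasome subunit genes -0.35 (3 of 36 fell, none rose) and cytosolic ribosomal protein genes -0.31 (13 of 77 fell, 2 rose). No difference between these sets and the pathway was tested.

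**Figure D2:**
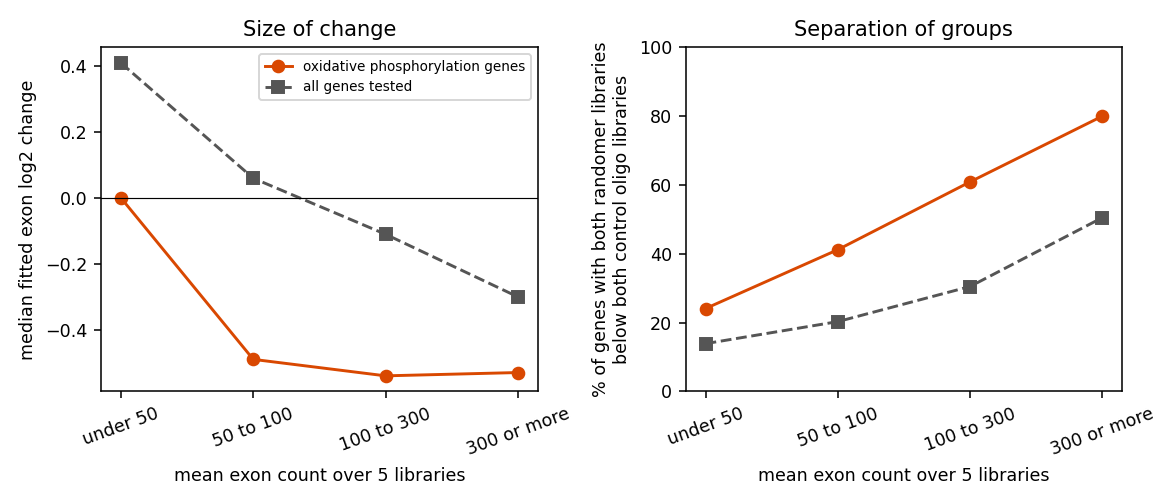
Median fitted exon log2 change (left, y axis) and percentage of genes with both randomer libraries below both control oligo libraries (right, y axis) by mean exon count over 5 libraries (x axis), for the pathway genes (circles) and all genes tested (squares). The pathway genes lie lower on the left and higher on the right in each of the 4 ranges, and in both sets the change is more negative where counts are high.

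Complex I, the entry point for electrons from NADH, had 36 genes, 35 of them tested, with a median change of -0.39. The 7 core genes, the catalytic part, had a median of -0.64 and the 28 accessory genes -0.15. By single times the core median was the lower at 9 h (-0.38 against -0.04) but not at 16 h (-0.40 against -0.51). The difference was not tested. NDUFB9, an accessory subunit of the LYR family, had 91.4 CPM in mock, 93 and 88.7 in the control oligo libraries of 9 h and 16 h, and 22.6 and 46.9 in those of the randomer. Its 2 randomer libraries lay well below the 3 others, which were close to each other. It fell 2.76-fold (log2 change -1.47, SE 0.42, edgeR adjusted p = 0.0127). The call was lost without the time term and with mock in place of control oligo at 16 h. In the annotation NDUFB9 overlaps TATDN1 and MTSS1, and the sources used here do not say whether counting used the strand.

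No other complex I gene passed. The most abundant by counts were NDUFB5, an accessory subunit, at 171, 188, 231, 195 and 204 CPM in the order mock, control oligo 9 h and 16 h, randomer 9 h and 16 h, and NDUFS1, the largest core subunit with iron-sulfur clusters of the NADH arm, at 180, 165, 163, 127 and 123 CPM. The values of NDUFB5 overlapped between groups (log2 change -0.06, SE 0.26), and those of NDUFS1 did not (-0.39, SE 0.29, edgeR adjusted p = 0.477). NDUFA6, also an accessory subunit of the LYR family, had 39, 92, 51, 16 and 4 counts and a fitted value of -2.35 (SE 0.88, edgeR adjusted p = 0.0759). Values above 0 were also found: NDUFC1, an accessory subunit of the membrane arm, had 8.66, 12.5 and 12.9 CPM without randomer and 21.1 and 40.5 with it (log2 change 1.20, SE 0.69, edgeR adjusted p = 0.319). The most positive fitted values, 2.10 for NDUFB7 and 1.91 for NDUFS7, rested on 37 or fewer exon counts per library and did not pass.

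Complex II, succinate dehydrogenase, had 4 genes, all tested, and none passed, with a median of -0.23. SDHA, the flavoprotein that holds the active site, had 99.5 CPM in mock, 135 and 88 with control oligo and 65.8 and 86.7 with randomer. SDHB, its iron-sulfur partner, had 26.5, 35.5, 36.6, 17.4 and 17.8 CPM. The values of SDHB with randomer were the lowest of the 5, and SDHA at 16 h was close to control oligo at that time. The membrane anchors went differently. SDHC had 113, 40.8, 89.5, 66.3 and 61.8 CPM, and SDHD 23.3, 19.3, 54.4, 49.5 and 71.7. For both, control oligo at 9 h and 16 h differed by more than the oligos did, with SDHD 2.82-fold higher at 16 h than at 9 h (log2 counting interval 1.03 to 1.99). The fitted changes were -0.53 for SDHA (SE 0.35), -1.03 for SDHB (SE 0.59), 0.08 for SDHC (SE 0.41) and 0.86 for SDHD (SE 0.45), with edgeR adjusted p between 0.259 and 0.95.

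Complex III, the cytochrome bc1 complex, had 8 subunit genes, all tested, with fitted changes at or below 0 in each and a median of -0.53, and none passed. UQCRB, a subunit at the ubiquinone site, had 489 CPM in mock, 411 and 451 with control oligo and 379 and 209 with randomer. UQCRFS1, the Rieske iron-sulfur protein, had 256, 282, 252, 187 and 202 CPM. UQCRC1, one of the core proteins, had 193, 163, 171, 108 and 100. In each of these 3 genes both randomer libraries were the lowest of the 5. The log2 changes were -0.61 (SE 0.24) for UQCRB, -0.46 (SE 0.25) for UQCRFS1 and -0.68 (SE 0.29) for UQCRC1, with edgeR adjusted p of 0.0986, 0.294 and 0.147. UQCRC2, the other core protein, had 47.1, 47.3, 56, 17.9 and 29.1 CPM (log2 change -1.17, SE 0.50, edgeR adjusted p = 0.138), and UQCR11, a small subunit, had 50.9, 69.2, 56.4, 36.9 and 32 CPM (-0.86, SE 0.45, adjusted p = 0.25). Both genes also had their lowest values with randomer. UQCRQ, UQCRH and UQCR10 were at -0.08, -0.32 and -0.00. Among the subunit genes with a window and a test, the 13 with NRF1 letters, which include 4 of complex III, had a median of -0.68 and the 48 without had -0.29. For YY1 letters the medians were -0.77 in 10 genes with and -0.32 in 51 without, for TATAAA -0.85 in 3 and -0.35 in 58, and for ETS letters the order was the other way, -0.13 in 9 and -0.51 in 52. None of these differences was tested. UQCRBP1 and UQCRHL, copies of UQCRB and UQCRH, may share reads with them and had 0 to 50 and 22 to 61 exon counts per library.

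Complex IV, cytochrome c oxidase, had 19 genes, including NDUFA4 and NDUFA4L2, which were named for complex I and are now placed in complex IV. Of these 13 were tested, with a median of -0.23, and 2 fell and 1 rose. COX7A2L, a factor that joins complexes III and IV into supercomplexes, had 793 CPM in mock, 650 and 679 with control oligo, and 414 and 397 with randomer. Both randomer libraries lay below the 3 others. It fell 1.64-fold (log2 change -0.71, SE 0.21, edgeR adjusted p = 0.0184), a call lost in 3 of 10 alternatives (adjusted p from 0.00222 to 0.0763). COX6A1, the ubiquitous form of subunit VIa, had 130, 139, 218, 80 and 113 CPM, lowest with randomer but with mock close to randomer at 16 h. It fell 1.83-fold (log2 change -0.87, SE 0.30, edgeR adjusted p = 0.0428), a call lost in 7 of 10 alternatives (adjusted p from 0.025 to 0.474). COX4I1, the largest nuclear subunit, had 244, 192, 195, 185 and 118 CPM (-0.38, SE 0.28, edgeR adjusted p = 0.468), and COX7A2 had 69.2, 65.8, 89.5, 54.2 and 35.5 (-0.79, SE 0.42, adjusted p = 0.26). Per kb of exon, COX6A1 and COX7A2L had the highest mean levels of complex IV, at 238 and 173 CPM per kb.

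The tissue-restricted and hypoxia-linked isoforms of complex IV stood apart from the rest. COX6B2, a form known mainly from testis, had 0 exon counts in mock and both control oligo libraries and 49 and 55 with randomer, and 0, 0, 0, 34 and 67 intron counts. Counted against a floor of 3 counts per library, exon levels were at least 22.7-fold higher than control oligo at 9 h and 34.2-fold at 16 h. It was called higher by exons (edgeR adjusted p = 3.34e-06) and introns (edgeR adjusted p = 0.000367), but not by exons with DESeq2 (adjusted p = 0.15). Since it entered both tests only through the libraries in which it is high, the calls describe counts against 0 and support nothing further. COX4I2, COX6A2, COX7A1, COX7B2 and COX8C were at 0 exon counts in all 5 libraries, which allows up to 3 counts in each. A 0 need not mean that a gene is silent, since RPL21 and RPS18, ribosomal genes that every cell uses, were also at 0 in all libraries. NDUFA4L2, a hypoxia-linked paralog of NDUFA4, had 0 exon counts but for 5 with randomer at 16 h. Its introns had 0, 0, 1, 16 and 55 counts and were called higher (edgeR adjusted p = 0.00477), again a test entered only through the randomer libraries. At 16 h the ratio was 103-fold, with a log2 counting interval from 4.14 to 12.01. In the annotation NDUFA4L2 overlaps SHMT2 and COX6B2 overlaps AC020922.1. Whether counting used the strand is not known, so these genes may share reads. COX6B2 and NDUFA4L2 reached 10 counts in introns only with randomer, as did COX8A, ATP5D, NDUFA6 and SDHD.

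**Figure D3:**
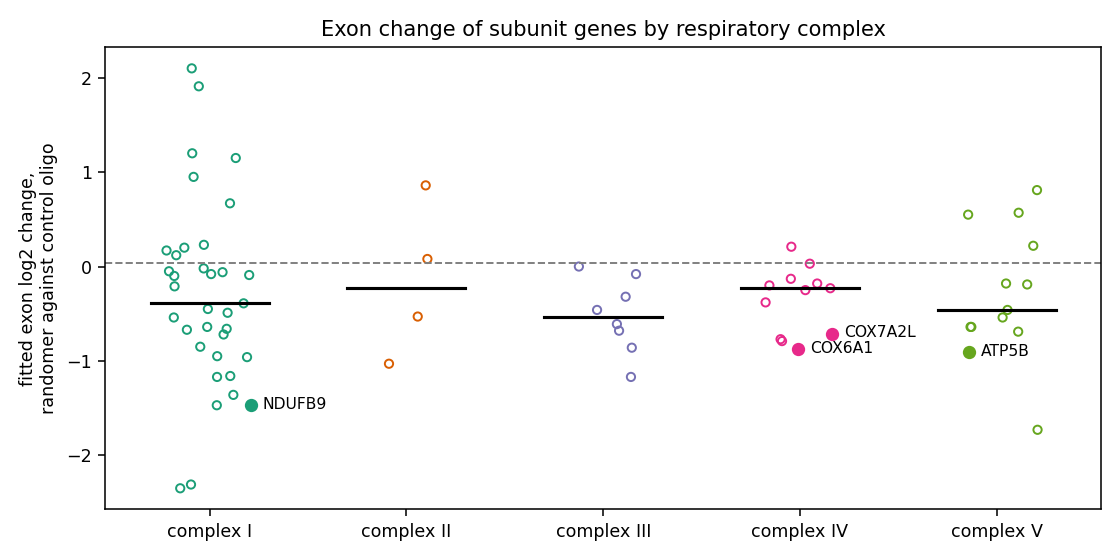
Fitted exon log2 change of randomer against control oligo (y axis) for each tested subunit gene except COX6B2, by complex (x axis). Filled points with names fell at adjusted p under 0.05, open points did not pass, black bars are medians (COX6B2 included) and the dashed line is the median of all genes at 0.04; the bars lie between -0.53 and -0.23.

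Complex V, the ATP synthase, had 15 genes, 13 tested, a median of -0.46 and 1 called. ATP5B was by far the most abundant gene of the pathway, with a mean of 2225 CPM per kb of exon against 238 for the next gene. It had 5687 CPM in mock, 4721 and 4914 with control oligo, and 2804 and 2329 with randomer. The randomer libraries were the lowest, and control oligo at 16 h lay 1.16-fold below mock (log2 counting interval -0.25 to -0.17). It fell 1.88-fold (log2 change -0.91, SE 0.15, edgeR adjusted p = 8.72e-07), and it kept its call under each of the 10 alternatives tried, with adjusted p from 1.21e-15 to 0.0146. At single times the log2 ratio was -0.75 at 9 h (counting interval -0.80 to -0.71) and -1.08 at 16 h (-1.13 to -1.02). In the annotation one of its introns holds the snoRNA gene SNORD59A.

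ATP5A1, the alpha subunit that forms the catalytic ring with beta, had 524, 500, 495, 386 and 265 CPM, again with the randomer libraries lowest. Its log2 change was -0.64 (SE 0.23, edgeR adjusted p = 0.0576), and DESeq2 called it lower. ATP5C1, the gamma subunit of the central stalk, had 72.5, 77.1, 122, 50 and 72.4 CPM (-0.69, SE 0.36, edgeR adjusted p = 0.257). The 3 genes of the c-ring, through which protons pass, were at -0.19 (ATP5G3), -0.64 (ATP5G2) and 0.22 (ATP5G1), none of which passed. The peripheral stalk genes ranged from -1.73 (ATP5O) and -0.54 (ATP5F1) to 0.55 (ATP5H) and 0.81 (ATP5J), without a call. ATP5SL, named for resemblance to an ATP synthase gene and now known as DMAC2, a complex I assembly factor, had 80.1, 97.2, 79.2, 51.6 and 27.7 CPM. It fell 2.3-fold (log2 change -1.20, SE 0.41, edgeR adjusted p = 0.0438), a call lost in 6 of 10 alternatives (adjusted p from 0.0375 to 0.147). COX4NB, now EMC8 of the endoplasmic reticulum, did not pass, at 0.30 (SE 0.38).

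**Figure D4:**
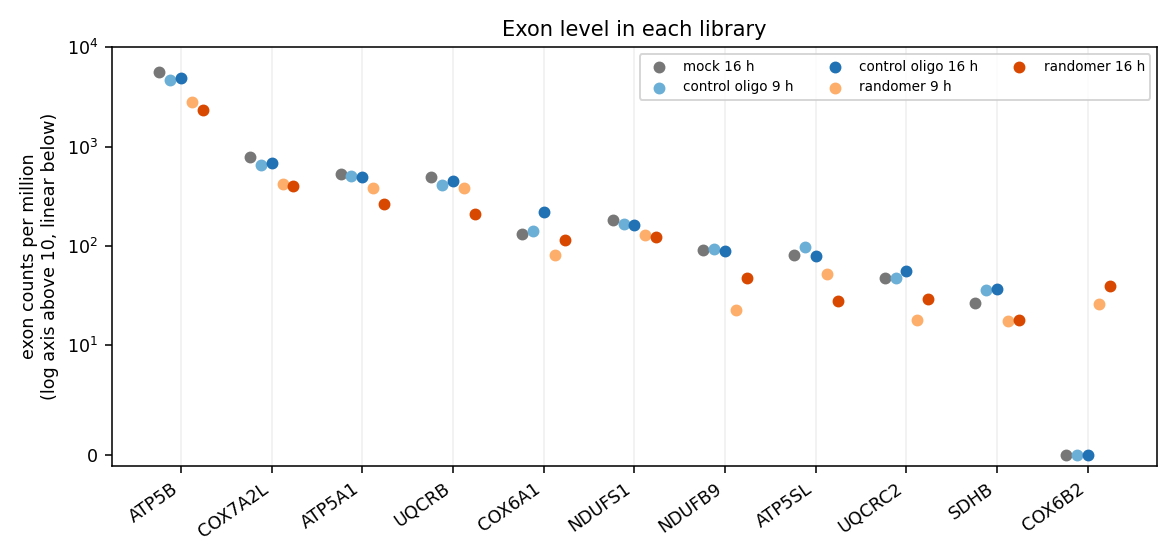
Exon level in CPM (y axis, logarithmic above 10 and linear below) of 11 genes in the 5 libraries, 1 point per library. Both randomer points are the lowest in every gene shown except COX6B2, which has points above 0 with randomer only; ATP5B runs from 2329 to 5687 and COX6B2 from 0 to 39.1.

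The wider pathway was read in the same fit. Of 42 assembly factors and carriers tested, 2 fell (4.76%, against 3.11% of all genes) and 0 rose (against 6.79%) by edgeR, with a median of -0.31. They were NDUFAF1, a complex I assembly factor (139, 232, 201, 63 and 23 counts, 3.45-fold lower, edgeR adjusted p = 0.00358), and COX11, a copper factor for complex IV (135, 165, 277, 73 and 29 counts, 2.81-fold lower, edgeR adjusted p = 0.0193). Of 13 enzymes of the citric acid cycle 1 fell, with a median of -0.50. It was FH, fumarase, with 496, 925, 839, 344 and 219 counts (1.99-fold lower, edgeR adjusted p = 0.00362). Of 10 tested nuclear regulators 1 fell, with a median of -0.04. It was POLRMT, the RNA polymerase of mitochondria (321, 313, 283, 114 and 70 counts, 2.06-fold lower, edgeR adjusted p = 0.0439). NRF1 (35, 54, 70, 19 and 34 counts), GABPA (33, 166, 128, 51 and 84) and YY1 (134, 146, 301, 132 and 137) did not pass, and PPARGC1A was at 0 in all 5 libraries. Subunits encoded by mitochondrial DNA have no row in the tables used here.

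Introns of the same genes gave another picture when scaled by exon library sizes. Of all intron counts, 86 of the genes held 0.693% in mock, 0.67% (9 h) and 0.64% (16 h) with control oligo. With randomer they held 0.336% (9 h) and 0.295% (16 h), so the intron share was lower, as the exon share was. Of 72 tested 16 were called higher and none lower, against 47.6% that rose and 0.0501% that fell over all genes (edgeR quasi-likelihood test on intron counts with exon library sizes, Benjamini-Hochberg over 11983 genes). Of the 72, 6 passed the count minimum only with randomer, and without them 14 of 66 rose (21.2%, against 42.9% of all genes) with a median of 1.01 against 1.65. At an unadjusted p under 0.05 by edgeR, 19 of the 72 were higher and 0 lower, against 6459 higher and 12 lower of all 11983. The median intron log2 change was 1.09 against 1.96, and both randomer libraries lay above both control oligo libraries in 46 of 72, against 76% of all genes. Both lay below in 4, against 3.14% of all genes, and 11 of 72 had fitted changes below 0, against 9.67%. DESeq2 called 24 higher and 0 lower, against 7032 and 29 over all genes. Scaling by TMM factors of the intron counts themselves took out much of the general shift (median of all genes 0.32). The pathway median was then -0.55, and 2 rose and 10 fell, including ATP5B and UQCRB. Of all 11983 genes 1859 rose and 615 fell.

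In the 3 ranges of intron length below 100000 bases, 18.2%, 20% and 18.2% of the pathway genes were called higher. The shares of all genes in these ranges were 25.9%, 38% and 52.9%. Spearman's rho of intron length and intron change was -0.07 across the 72 genes (0.14 across all genes). NDUFS4, an accessory subunit of complex I, NDUFA10 and NDUFA12, the 3 tested genes with over 100000 bases of intron, all rose, and 68.1% of all genes with such introns did. NDUFS4 had 40 intron counts in mock, 91 and 55 with control oligo and 255 and 289 with randomer. Its randomer libraries lay far above the others, and it rose 6.14-fold (log2 change 2.62, SE 0.54, edgeR adjusted p = 0.00051). SDHC had 53, 70, 10, 212 and 262 intron counts and rose 12.5-fold (3.64, SE 0.73, edgeR adjusted p = 0.000425), though its 2 control libraries differed from each other and CFAP126 overlaps it in the annotation. NDUFA5, an accessory subunit, had 10, 14, 1, 49 and 61 counts and rose 15.6-fold (edgeR adjusted p = 0.0121), and ATP5L, subunit g of the synthase, had 6, 15, 0, 39 and 86 counts and rose 18-fold (adjusted p = 0.0163). Control oligo at 16 h held 1 and 0 counts of these genes, and at 9 h the ratios were 4.87-fold and 3.62-fold. Both calls were lost with TMM factors of the intron counts (edgeR adjusted p = 0.229 and 0.189). In the annotation ATP5L overlaps AP001267.1, AP001267.5 and AP001267.4.

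Of the remaining calls, NDUFS7, a core subunit of complex I, had 129, 103, 79, 200 and 276 intron counts (4.19-fold, edgeR adjusted p = 0.00325), and NDUFV2 185, 167, 124, 310 and 203 (2.81-fold, adjusted p = 0.0151). UQCRC1 had 231, 198, 204, 267 and 297 (2.26-fold, edgeR adjusted p = 0.0427), and the others were NDUFA9, NDUFA10, NDUFA11, NDUFA12, NDUFA13, COX6C, ATP5H, COX6B2 and NDUFA4L2. The log2 changes of UQCRC1 (1.17), NDUFA10 (1.22), NDUFA9 (1.34), NDUFV2 (1.49) and NDUFA12 (1.74) lay below the all-gene median of 1.96. The rest of these calls lay above it. Scaled by TMM factors of the intron counts, 2 of the 72 genes were called higher, COX6B2 and SDHC, against 1859 of all 11983. At the other end, where intron counts averaged 20 or more, the lowest changes were those of ATP5G2 (20, 34, 59, 14 and 11 counts, -1.16, SE 1.18), ATP5C1 (61, 114, 114, 64 and 30, -0.68, SE 0.67), NDUFB2 (45, 107, 17, 22 and 16, -0.55, SE 1.08) and ATP5G1 (18, 26, 33, 20 and 10, -0.35, SE 1.39), with edgeR adjusted p from 0.427 to 0.858. None of these 4 passed, and NDUFB2 had its 2 control libraries at 107 and 17.

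Restricted to genes with no overlapping gene in the annotation, 4 of 26 rose and the median was 0.95. Over all genes, overlapping ones included, 47.6% rose and the median was 1.96. ATP5J2-PTCD1, a readthrough gene with 0 exon counts in all 5 libraries, had 572, 690, 648, 444 and 275 intron counts. The introns of UQCRB (229, 161, 174, 186 and 103 CPM) had a fitted change of -0.27 (SE 0.46), and those of ATP5B (252, 199, 194, 236 and 299 CPM) 0.44 (SE 0.42, edgeR adjusted p = 0.415). For ATP5B the intron level in the randomer libraries, scaled by exon library sizes, thus lay above control oligo at both times while the exon level lay below. Its intron change was still below the all-gene median of 1.96. As a share of all intron counts ATP5B was lower with randomer, at 0.0253% (9 h) and 0.0216% (16 h) against 0.0709% and 0.0659% with control oligo.

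**Figure D5:**
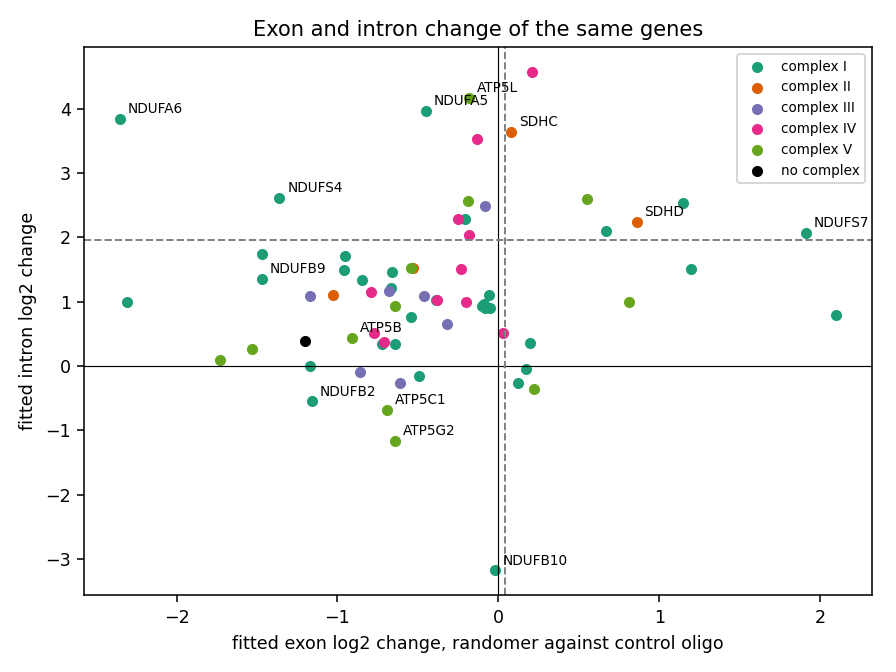
Fitted intron log2 change (y axis) against fitted exon log2 change (x axis), randomer against control oligo, for the genes tested in both except COX6B2 and ATP5D, coloured by complex. Dashed lines are the medians of all genes, 0.04 for exons and 1.96 for introns; 46 of the 70 genes tested in both lie at lower exon and higher intron levels.

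Set side by side, 46 of the 70 genes tested in both tables had lower exon and higher intron levels (65.7%, against 41.9% of all 9295 genes), 14 were higher in both, 7 lower in both and 3 higher in exons only. Across these 70 genes Spearman's rho of the exon and intron changes was 0.24, and 0.41 across all genes, where exon and intron counts share their libraries and scaling. The intron-to-exon ratio (limma on log2 values with 0.5 added, Benjamini-Hochberg over all genes) rose in 20 of 70 genes and fell in 0, against 34.6% and 0.194% of all genes, with a median of 1.42 against 1.62. Ratio changes lay below 0 in 7 of 70 genes, against 11.8% of all genes. At an unadjusted p under 0.05 by limma, 27 were higher and 1 lower, against 4229 and 41 over all genes. Once centred within each library, which removes the general shift (median of all genes 0.06), 0 genes of the 70 rose or fell by limma, and 17 and 7 did over all genes.

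Ratio calls were spread over the complexes, in complexes other than II at shares below the 34.6% of all genes, with 9 of 33 genes of complex I, 3 of 4 of complex II, 2 of 7 of complex III, 2 of 12 of complex IV and 4 of 12 of complex V. Of the 70 genes 5 passed a count minimum only with randomer, and without them 17 of 65 rose (26.2%, against 35.5% of all genes). NDUFA6 had the highest change, its introns holding 0%, 1.08% and 7.27% of its counts without randomer and 55.6% and 84% with it (log2 change 6.02, SE 1.91, limma adjusted p = 0.0247), on 21 or fewer intron counts per library. ATP5L had 7.23%, 10.6%, 0%, 32.5% and 65.2% (5.25, SE 1.35, limma adjusted p = 0.00874), and ATP5D, the delta subunit of the catalytic part, 0% in the 3 others and 43.2% and 37.8% with randomer (limma adjusted p = 0.0398). NDUFA6 and ATP5D entered this test only through the randomer libraries, so their calls are given as values and support nothing. The introns of ATP5B held 4.24%, 4.04% and 3.8% of its counts without randomer and 7.76% and 11.4% with it (1.35, SE 0.35, limma adjusted p = 0.00943), and those of UQCRC2 45.3%, 47.3%, 45.8%, 78.9% and 82.3% (2.24, SE 0.59, adjusted p = 0.0097). The lowest changes, which did not pass, were NDUFB10 (5.11%, 14%, 11.1%, 0% and 5.26%, limma adjusted p = 0.0795), NDUFB7 (50%, 52.9%, 60.9%, 28.8% and 41.7%, adjusted p = 0.548) and ATP5G1 (25.4%, 28.6%, 33.3%, 18.3% and 29.4%, adjusted p = 0.73). UQCRB was at 31.9%, 28.2%, 27.8%, 33% and 33%, with a change of 0.34 (SE 0.36).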

How the data were processed

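Exon and intron counts of 5 A549 libraries were used. Per the submitters' processing notes TopHat2, HTSeq and the genome build hg19 were used, with no versions or roles, and the authors deposited 2 tables of raw counts by gene symbol, of exons and of introns. After 28 date-like rows per table were removed, 23340 and 22009 genes remained. Symbols paired 86 of the 91 genes with introns.

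Library sizes were the exon totals after filtering (at least 10 counts in at least 2 libraries) times TMM factors, also for introns, so a general intron shift is kept. edgeR 4.0.16 (R 4.3.3) fitted 4 oligo libraries with time as a term, leaving 1 residual degree of freedom. Its p-values rest on how far the difference between the oligos varied between the 2 times, pooled across genes. That spread may be technical, and an effect that changes with time is counted as spread. limma 3.58.1 with a variance trend tested the log2 intron-to-exon ratio with 0.5 added. Adjustment was by Benjamini-Hochberg over all genes tested. Single contrasts are ratios with exact 95% counting intervals and no test. Intervals and floors (3 counts) cover counting error only, since PCR copies are not independent molecules.

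The members and lists were chosen with earlier results of these data known. Named genes were those called by exons, the 2 most abundant and 2 most changed per complex, extremes of the intron and ratio changes, and isoforms; the others were named after their values were seen. Some genes that the rule or a check would name are not reported here. Lengths, overlaps and pseudogenes came from GENCODE 29 (GRCh38), whose coordinates differ from the build of the counts, and windows from RefSeq, found for 71 genes. Alternatives covered scaling, filters, DESeq2 1.42.0, the time term, mock, depth and overlapping genes. Pseudogenes of 44 genes (158 in all) may share reads with them.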

Additional observations from a re-analysis of the deposited data

Results flagged for a closer look

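Genes whose ratio of randomer over control oligo pointed up at 9 h and down at 16 h, with counting intervals away from 0 at both times and a mean of at least 50 counts, were picked out. With 1 library per group the difference between times was not tested, and part of it may be spread between libraries. By exons, NDUFS3, a core subunit of complex I, had a log2 ratio of 0.70 at 9 h and -2.40 at 16 h, where the randomer library held 6 counts against 59 with control oligo. NDUFS6 was at 0.51 and -1.62, and NDUFB3 at 0.51 and -0.71, both accessory subunits of complex I. SDHC, a membrane anchor of complex II, was at 0.70 and -0.53, and UQCRQ of complex III at 0.35 and -0.51. For SDHC the 2 control oligo libraries, at 40.8 and 89.5 CPM, differed more than the 2 randomer libraries, at 66.3 and 61.8. By introns, UQCRB was at 0.21 and -0.75, on 354 and 145 counts with randomer.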

How the results depend on the processing

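The pathway's exon median kept its sign under all 10 alternatives (-0.53 to -0.28), and ATP5B kept its call. In the main fit 5 of 79 genes fell, against 355 of all 11407. With DESeq2 size factors and with counts divided by 8, 3 fell, against 237 and 178 of all genes. A minimum of 50 counts gave 3 of 56, against 286 of 7315. Library totals gave 2, against 279. Without the time term 1 fell, against 95. Mock in place of control oligo at 16 h, an alternative chosen after seeing the data, gave 1, against 60. Without RN45S, with the DESeq2 test and with mock added 6 fell, against 402, 424 and 317. No filter gave 5 of 84, against 339 of 15305. The 1 gene that rose, COX6B2, was not called by DESeq2 and was not tested at 50 counts (0 in both). For introns, TMM factors of the intron counts gave 2 higher and 10 lower of 72, against 1859 and 615 of 11983 genes. They reversed the median to -0.55. Without overlapping genes 4 of 26 were higher, with fewer genes tested, against 47.6% of all genes with overlapping ones included. For the ratio, centring gave 0 higher, a median of -0.15 and -0.21 for ATP5B, while 11 were higher without the time term and 10 with mock added. Over all 9295 genes the last alternatives gave 2357 and 2454 higher. Other causes were not tested. Shares without RN45S in the total were 1.25%, 1.12%, 1.22%, 0.863% and 0.743% (mock, control oligo, randomer), and for subunit genes only 1.08%, 1.1% and 0.776% in mock, control oligo 16 h and randomer 9 h. No pairing by replicate number was possible, because each group has 1 library. With time as a term, the fit compared randomer with control oligo within each time. Depth limits single genes: below a mean of 50 exon counts 0 of 29 fell, against 12 of all 4814 genes in that range (0.249%).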
